A study of Mus musculus with 36 samples.

Results

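A set of 10 genes of the bone morphogenetic protein (BMP) pathway was followed through the histone islands of the mouse hippocampus and of cultured hippocampal progenitors. The genes were chosen by name, out of 21938 protein-coding genes, as the BMP ligands Bmp2, Bmp4, Bmp5, Bmp6 and Bmp7, the secreted antagonists Nog, Chrd and Grem1, and the target genes Msx1 and Msx2. The rule uses no measured value, but earlier results of these data were known when the genes were chosen. H3K27me3 islands reached within 2 kb of the start sites of Bmp2, Bmp4, Bmp6, Grem1, Msx1 and Msx2 in all 8 libraries of that mark. Bmp4 and Bmp7 each had 1 Polycomb mark at the start site that was present in hippocampus and absent or nearly absent in neurospheres. Deletion of the CxxC domain of KDM2B left no member past the false discovery rate (FDR) threshold in edgeR, and the lowest FDR belonged to H3K27me3 at Nog in neurospheres.

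BMP ligands are secreted dimers that bind pairs of type I and type II receptor kinases, which phosphorylate receptor Smads. In the embryonic forebrain they are released at the dorsal midline, by the roof plate, the cortical hem and the choroid plexus, and the hem borders the field that becomes the hippocampus. Noggin, chordin and gremlin bind ligands outside the cell and keep them from their receptors. Msx1 and Msx2 are homeobox repressors that BMP signals induce. Many such developmental genes carry Polycomb marks where they are not expressed, with H2AK119ub1 placed by Polycomb repressive complex PRC1 and H3K27me3 by PRC2. KDM2B brings a variant PRC1 to unmethylated CpG-rich DNA through its CxxC zinc finger, and its long form can remove H3K36me2.

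Chromatin immunoprecipitation sequencing (ChIP-seq) had been done on mouse hippocampus at postnatal day 0 and on neurospheres, floating cultures of progenitors enriched from hippocampi of that age and grown with FGF2 and EGF. The control animals (Ctrl) were Kdm2bfl/+ or Kdm2bfl/fl, and the conditional knockouts (cKO) were Kdm2bEmx1-delta-CxxC, in which Emx1-Cre, active in progenitors of the dorsal telencephalon and their descendants, removed the exon for the CxxC domain, leaving a truncated protein. Cells of other lineages in the tissue keep that exon. Each mark, origin and genotype had 2 libraries, and the other 12 of 36 samples were inputs, not analysed here. No age before birth and no dissected dorsal midline was sampled, so every value below is for the hippocampus or its cultured progenitors. The labels do not say whether the 2 libraries of a group came from separate animals or cultures, so p-values measure only the spread between libraries, which may be technical.

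The values come from islands, the broad stretches that the authors called in each library against input DNA. They also come from the number given for each island, taken here as its count of reads. A stretch without an island has an unknown count, not a count of 0. Counts in islands per library ran from 987329 to 6799122 for H2AK119ub1 in hippocampus and from 5025115 to 17734396 in neurospheres. They ran from 1681001 to 5525016 and from 13195590 to 17025504 for H3K27me3, and from 3109819 to 4504325 and from 10587042 to 22021439 for H3K36me2. The first replicates of both genotypes were shallow for H2AK119ub1 in hippocampus, with islands over 45.7 Mb in Ctrl and 37.3 Mb in cKO against 157 and 247 Mb in the second replicates. Of 5 non-neural control genes, 4 had an H3K27me3 island at the start site in all 4 hippocampal libraries and 4 in all 4 neurosphere libraries, whereas the brain-expressed classes were mixed. Of the 5 progenitor genes, Sox2 and Vim had none in either origin, but Pax6 had one in 4 hippocampal and 3 neurosphere libraries and Hes1 in 3 and 3. Of the 5 neuron genes none had one in all 4 libraries of an origin. Of the 5 dorsal telencephalon genes, Emx1 had an H3K27me3 island in 1 of 4 hippocampal libraries and in 4 of 4 neurosphere libraries. Islands do not measure expression, and the deletion itself cannot be seen in them.

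The members are spread over the genome. In mm10, Bmp2 lies at chr2:133552159-133562885 and Bmp7 at chr2:172868012-172940321, Bmp4 at chr14:46383520-46390669, Bmp5 at chr9:75775364-75900310 and Bmp6 at chr13:38345107-38500302. Of the antagonists, Nog is at chr11:89300638-89302332, Chrd at chr16:20733127-20742384 and Grem1 at chr2:113746164-113758646. Msx1 is at chr5:37820485-37824583 and Msx2 at chr13:53466884-53473074. Bmp2, Bmp5, Bmp6 and Chrd are on the plus strand and the others on the minus strand.

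CpG content sets a pair of the ligands apart from the rest. Over the 1 kb around the start, 8 of the 10 genes were CpG-rich, meaning a GC share over 50% with CpG at more than 0.6 of the frequency that base composition predicts. Bmp4 had 56.8% GC but a CpG ratio of 0.44, and Bmp5 had 37% GC and a CpG ratio of 0.26. RefSeq start sequences (GRCm38.p6, the same build as mm10) were matched for 7 of the 10 genes, with no entry for Bmp2, Bmp7 and Nog. Among 32851 promoters of that table the median was 6 CpG in the 250 bases before the start, and 92.1% held at least 1. The sequences of 4 members are printed because unmethylated CpG is what the deleted domain binds and because these 4 span the patterns described next: Bmp5 never had an H2AK119ub1 island at its start, Bmp4 had one in hippocampus alone, Chrd had H2AK119ub1 nearly without H3K27me3, and Msx1 had wide islands of both. Each is written 5′ to 3′ in the direction of transcription, with every CpG in capitals.
Bmp5 (chr9:75775115-75775364, plus strand): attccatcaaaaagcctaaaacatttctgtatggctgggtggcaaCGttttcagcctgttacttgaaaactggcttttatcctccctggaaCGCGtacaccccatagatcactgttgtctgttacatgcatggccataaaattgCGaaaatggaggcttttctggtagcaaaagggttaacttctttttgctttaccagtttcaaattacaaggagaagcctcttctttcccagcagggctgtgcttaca
Bmp4 (chr14:46390670-46390919, minus strand): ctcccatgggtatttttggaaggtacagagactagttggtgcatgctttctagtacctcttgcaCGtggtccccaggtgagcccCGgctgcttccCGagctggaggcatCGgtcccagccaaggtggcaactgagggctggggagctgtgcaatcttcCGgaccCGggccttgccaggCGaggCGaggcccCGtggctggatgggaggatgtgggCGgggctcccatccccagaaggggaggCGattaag
Chrd (chr16:20732877-20733126, plus strand): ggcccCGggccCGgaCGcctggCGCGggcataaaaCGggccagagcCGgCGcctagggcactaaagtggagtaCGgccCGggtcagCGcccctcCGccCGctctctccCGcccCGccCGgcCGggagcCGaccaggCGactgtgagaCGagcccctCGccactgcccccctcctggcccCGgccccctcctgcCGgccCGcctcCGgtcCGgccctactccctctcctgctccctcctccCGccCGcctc
Msx1 (chr5:37824586-37824835, minus strand): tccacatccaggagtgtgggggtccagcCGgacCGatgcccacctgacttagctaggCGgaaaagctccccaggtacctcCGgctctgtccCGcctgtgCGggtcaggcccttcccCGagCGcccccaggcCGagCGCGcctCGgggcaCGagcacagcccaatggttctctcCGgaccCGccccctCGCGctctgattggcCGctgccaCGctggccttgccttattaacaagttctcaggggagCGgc
These windows held 4 CpG for Bmp5, 11 for Bmp4, 28 for Chrd and 20 for Msx1. At least as many were found in 62.2% of all promoters for Bmp5, in 35.6% for Bmp4, in 17.9% for Msx1 and in 7.61% for Chrd. Grem1 had 24, Bmp6 22 and Msx2 16. For Bmp6 and Msx2 the RefSeq start lies downstream of the start used for coverage, at 38345107 and 53473074. Their windows, chr13:38345466-38345715 and chr13:53472781-53473030, therefore lie inside the genes as placed above. The counts of CpG describe the sequences and were not tested against the marks.

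H3K27me3 covered most of the set. The covered share is the percentage of the 4 kb centred on the start (TSS ±2 kb) that lay inside islands. Averaged over the 10 genes it ran from 60.2% to 77.6% in the 4 hippocampal libraries and from 60.9% to 65.8% in the 4 neurosphere libraries, while the mean over all protein-coding promoters ran from 8.37% to 16.5% and from 16.8% to 19.5%. The median over all promoters was 0 in every library. An island in all 8 libraries was found for 6 of the 10 genes and for 5.75% of all promoters, or 6.84% of CpG-rich promoters. The list was chosen with earlier results of these data known, so this comparison is a description.

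**Figure D1:**
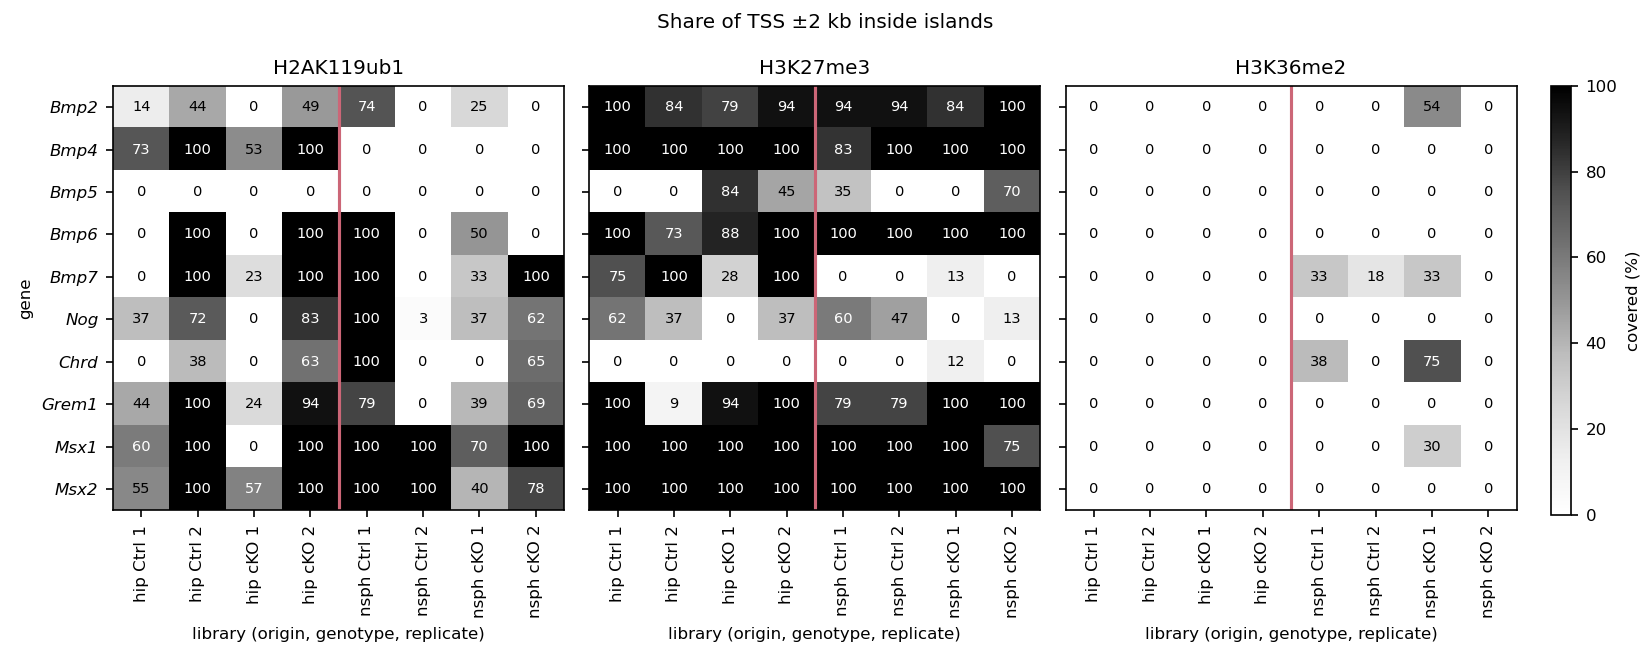
Percentage of TSS ±2 kb inside islands for the 10 genes (rows) in each library (columns, hip for hippocampus and nsph for neurosphere), 1 panel per mark, with the value printed in each cell and the red line between the origins. H3K27me3 fills the rows of Bmp4, Msx1 and Msx2, the H2AK119ub1 row of Bmp4 is at 0 in all 4 neurosphere libraries, and the H3K36me2 panel is at 0 in hippocampus.

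Among the ligands, Bmp4, which patterns the dorsal midline, was covered by H3K27me3 to 100% in all 4 hippocampal libraries and to 83.3%, 100%, 100% and 100% in neurosphere Ctrl 1, Ctrl 2, cKO 1 and cKO 2. Bmp2, its close relative, was covered to 100%, 83.95%, 78.95% and 93.95% in hippocampus and to 93.95%, 93.95%, 83.95% and 100% in neurospheres, in the same order of libraries. Bmp6, a ligand of the Bmp5, Bmp6 and Bmp7 subgroup, was covered to 100%, 72.65%, 87.65% and 100% in hippocampus and to 100% in every neurosphere library. These 3 ligands were thus high in every library, with overlapping values in both origins and both genotypes.

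Bmp7 and Bmp5, of the same subgroup as Bmp6, departed from this pattern. Bmp7 was covered by H3K27me3 to 75%, 100%, 28% and 100% in hippocampus and to 0%, 0%, 13% and 0% in neurospheres. The origins did not overlap, and the difference of means, neurosphere minus hippocampus, was -72.5 percentage points. Bmp5 was covered to 0% in both hippocampal Ctrl libraries, to 84.1% and 45% in the hippocampal cKO libraries, and to 35%, 0%, 0% and 70% in neurospheres. Its islands were narrow, from 1.4 to 4.0 kb.

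Among the antagonists the mark differed from gene to gene. Grem1, which encodes gremlin, was covered by H3K27me3 to 100%, 8.875%, 93.9% and 100% in hippocampus and to 78.9%, 78.9%, 100% and 100% in neurospheres. The low value belonged to hippocampal Ctrl 2, the library with the fewest H3K27me3 counts. Nog, which encodes noggin, was covered to 61.7%, 36.7%, 0% and 36.7% in hippocampus and to 60%, 46.7%, 0% and 13.3% in neurospheres. Chrd, which encodes chordin, had no H3K27me3 island at its start in 7 of 8 libraries and 11.85% in neurosphere cKO 1.

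The Msx targets carried the widest H3K27me3 islands of the members. H3K27me3 covered the Msx2 start to 100% in all 8 libraries, and that of Msx1 to 100% in 7 of 8 and to 75% in neurosphere cKO 2. The widest H3K27me3 island at Msx1 measured 41.6, 28.6, 29.2 and 34.6 kb in hippocampus and 92, 58, 107.2 and 101 kb in neurospheres. At Msx2 it measured 41.8, 24.8, 28.2 and 29.6 kb in hippocampus and 47.4, 47.6, 43.6 and 58.4 kb in neurospheres. Each of these islands was many times longer than the gene, 4.10 kb for Msx1 and 6.19 kb for Msx2, and for both genes every neurosphere island was wider than every hippocampal one. The neurosphere libraries also had more H3K27me3 counts and more covered length (268 to 321 Mb, against 54.9 to 160 Mb), and the part of depth in this width was not tested.

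H2AK119ub1 was patchier over the same genes. The mean covered share of the 10 genes was 28.2%, 75.4%, 15.7% and 78.9% in hippocampal Ctrl 1, Ctrl 2, cKO 1 and cKO 2, and 75.3%, 20.3%, 29.4% and 47.4% in the neurosphere libraries. The libraries of each group thus differed by more than the group means did, and the values followed the length that islands covered in each library, the lowest values in each origin belonging to the libraries with the least covered length. Only Msx2 had an H2AK119ub1 island in all 8 libraries, against 1.07% of all promoters, and 9 of 10 genes had one in at least 1 library, against 52.1%.

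At single genes, Msx2 was covered by H2AK119ub1 to 55%, 100%, 56.8% and 100% in hippocampus and to 100%, 100%, 40% and 78.2% in neurospheres. Msx1 was covered to 59.55%, 100%, 0% and 100% in hippocampus and to 100%, 100%, 70% and 100% in neurospheres. Both targets were thus below 100% in the shallow hippocampal libraries and in neurosphere cKO 1, and reached 100% in the others with the exception of Msx2 in neurosphere cKO 2.

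Of the ligands, Bmp4 showed the sharpest contrast between the origins. H2AK119ub1 covered 73.3%, 100%, 53.3% and 100% of its promoter in hippocampus and 0% in all 4 neurosphere libraries. Each of these 4 held more counts in islands than hippocampal Ctrl 2, where the promoter was fully covered. Neurosphere Ctrl 2 had less covered length than that library, 127 Mb against 157 Mb, and the part of depth was not tested. Bmp5 was at 0% in all 8 libraries. Bmp6 was covered to 0%, 100%, 0% and 100% in hippocampus and to 100%, 0%, 50% and 0% in neurospheres. Bmp7, whose start was nearly without H3K27me3 in culture, was covered by H2AK119ub1 to 0%, 100%, 23% and 100% in hippocampus and to 100%, 0%, 33% and 100% in neurospheres, so that the origins overlapped. Its H2AK119ub1 islands of 87.6 kb in neurosphere Ctrl 1 and 63 kb in cKO 2 were the widest of that mark at any member. Bmp2 reached at most 73.95%, in neurosphere Ctrl 1.

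Of the antagonists, Nog was covered by H2AK119ub1 to 36.7%, 71.7%, 0% and 83.3% in hippocampus and to 100%, 3.275%, 36.7% and 61.7% in neurospheres. Grem1 was covered to 43.9%, 100%, 23.9% and 93.9% in hippocampus and to 78.9%, 0%, 38.9% and 68.9% in neurospheres. For both genes the values of each origin overlapped those of the other. Chrd was covered to 0%, 38.15%, 0% and 63.15% in hippocampus and to 100%, 0%, 0% and 65% in neurospheres. Chrd therefore had H2AK119ub1 at its start in 4 libraries and H3K27me3 in 1.

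At Msx1 nearly all H2AK119ub1 islands lay inside H3K27me3, and at Bmp4 the H3K27me3 islands of neurospheres had no H2AK119ub1 islands around them. Within 20 kb of the Msx1 start, between 90% and 100% of the bases in H2AK119ub1 islands were also in H3K27me3 islands of the same-numbered library. H3K27me3 islands filled from 33 to 40 kb of the 40 kb there, which left little room for H2AK119ub1 outside them. Over the whole genome the share ran from 16.8% to 58.2%. In the other direction from 25.8% to 95.0% of the H3K27me3 bases around Msx1 were in H2AK119ub1 islands, so that some H3K27me3 had no H2AK119ub1 island. In hippocampus this share was 48.5% and 25.8% in the shallow Ctrl 1 and cKO 1 libraries and 92.7% and 92.5% in Ctrl 2 and cKO 2. The part of depth in it was not tested. At Msx2 the share of H2AK119ub1 inside H3K27me3 was between 78.7% and 100%, with H3K27me3 over 27.9 to 40 kb of the 40 kb. At Grem1 that share was 100% in 6 of 8 libraries and 16% and 16.7% in hippocampal and neurosphere Ctrl 2. In neurospheres H3K27me3 islands filled from 13.8 to 25 kb of the 40 kb around the Bmp4 start and H2AK119ub1 islands none of it. In hippocampus the shared length there was 5.4, 14.6, 8.4 and 19.2 kb. Around Bmp7, shared length in neurospheres was 4.2, 0, 2.2 and 0 kb, with H2AK119ub1 islands over 38.4, 0, 13.6 and 37.2 kb.

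**Figure D2:**
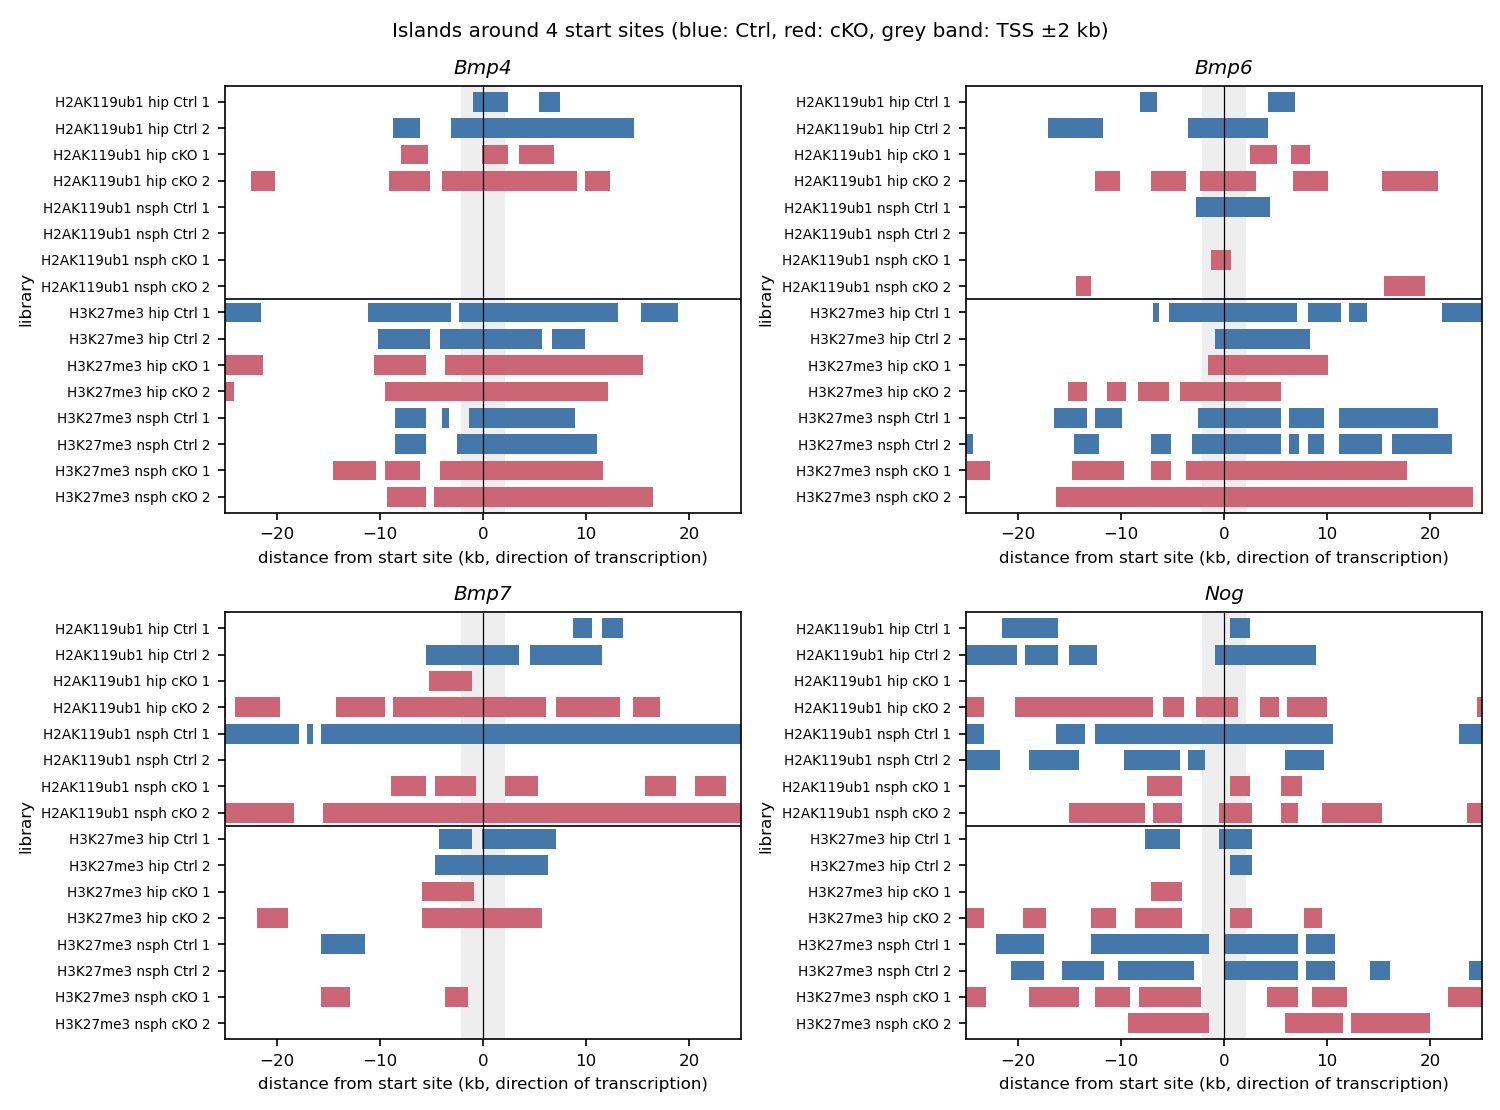
Islands of H2AK119ub1 (upper 8 rows) and H3K27me3 (lower 8 rows) in each library within 25 kb of the start sites of Bmp4, Bmp6, Bmp7 and Nog, on an axis of kb from the start in the direction of transcription, with Ctrl in blue, cKO in red and TSS ±2 kb in grey. Bmp4 has no H2AK119ub1 bar in the 4 neurosphere rows, Bmp7 has nearly no H3K27me3 bar there, and the H3K27me3 bar over the start of Bmp6 is longest in the neurosphere cKO rows.

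H3K36me2 islands were called at 4 of the 10 start sites, and in neurospheres alone. In hippocampus none of the 10 genes had an H3K36me2 island at the start in any of 4 libraries, while 12.6% of all promoters had one in at least 1 library. In neurospheres 4 of 10 genes had one in at least 1 library, against 49.1% of all promoters. Neither count stands far from its background. Bmp7 was covered to 33%, 18%, 33% and 0% and Chrd to 38.15%, 0%, 75% and 0%, while Bmp2 (53.95%) and Msx1 (30%) had an island in cKO 1 alone. That library had 42.2% of all promoters with an island, and cKO 2 had 11.3%.

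H3K36me2 islands lay over parts of the gene bodies of Bmp7, Bmp5 and Chrd in some or all libraries. These values are given without a share over all gene bodies, so they do not show whether the members stand out. The values of Bmp6, whose body of 155 kb is the longest of the members, are not given here. Islands covered 17.7%, 19.9%, 29.0% and 49.2% of the 72.3 kb body of Bmp7 in hippocampus and 70.8%, 0%, 86.8% and 5.81% in neurospheres. Of the 125 kb body of Bmp5, they covered 3.52%, 6.56%, 4.48% and 3.68% in hippocampus and 13.4%, 23.3%, 11.2% and 35.1% in neurospheres. The body of Chrd was at 0% in hippocampus and at 71.3%, 12.8%, 89.4% and 0% in neurospheres.

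The first comparison asked how the marks at these genes differ between tissue and culture. For single genes an exact permutation test within genotypes has 36 splits, so its smallest two-sided p is 0.0556 and no gene can pass 0.05. Bmp4 for H2AK119ub1 (mean 81.65% in hippocampus and 0% in neurospheres, difference -81.65 points) and Bmp7 for H3K27me3 (means 75.75% and 3.25%) reached that smallest p. Over all promoters with an island in at least 1 of 8 libraries, coverage was lower in all neurosphere libraries than in all hippocampal ones for 0.0963% with H2AK119ub1 and for 2.66% with H3K27me3, and higher for 3.33% and 12.4%. So 1 of the 9 members with an H2AK119ub1 island was lower and none higher, and 1 of the 10 with an H3K27me3 island was lower and none higher. For H3K36me2, where 0.0718% of promoters were lower and 6.26% higher, none of the 4 members with an island separated. When islands were trimmed to an equal covered length in all 8 libraries, the Bmp4 difference was -56.65 points and the Bmp7 difference -50 points. A drop in a mark in bulk material can come from fewer cells that carry it or from less of it per cell, and these cannot be told apart here.

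Summed island counts could be compared by a test across many regions. Islands of all 8 libraries of a mark were merged into regions, and each gene took the region with the largest overlap of TSS ±2 kb. Regions with an island in every library were tested with edgeR's quasi-likelihood test, adjusted over all regions. The count of a region is the sum over the islands that each library has in it, and the reads between islands are unknown, so a difference can come from how much was called as well as from how densely it was covered. For H3K27me3, 6 members could be tested, and the island counts of Bmp2 and Bmp4 were lower in neurospheres (20.2% of all 2373 regions were lower and 22.2% higher). The Bmp4 region, chr14:46371801-46405200, had 226, 309, 196 and 209 normalised CPM (reads in the region scaled to the library's TMM-normalised total in islands) in hippocampus and 88.0, 120, 138 and 129 in neurospheres, with no overlap. The log2 fold change was -0.98 ± 0.25 (SE) with an edgeR adjusted p of 0.0112. Islands covered 27, 18, 24.2 and 21.6 kb of the region in hippocampus and 13.8, 16.6, 23.4 and 25 kb in neurospheres, with 43.4, 40.4, 50.2 and 66.1 counts per kb against 95.4, 81.7, 64.8 and 56.7. Length and density each overlapped between the origins. In the Ctrl libraries both lengths were shorter and both densities higher in neurospheres, which was not so in the cKO libraries.

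The Bmp2 region, chr2:133548001-133560200, had 60.9, 95.4, 60.2 and 64.5 normalised CPM in hippocampus and 31.5, 32.5, 34.9 and 45.7 in neurospheres. All 4 neurosphere values lay below the hippocampal ones, with a log2 fold change of -0.96 ± 0.28 (SE) and an edgeR adjusted p of 0.022. Islands covered 8.2, 6.2, 8.8 and 6.4 kb of the region in hippocampus and 5.6, 5.6, 8 and 12.2 kb in neurospheres, at 38.5, 36.3, 42.5 and 68.9 against 84.3, 65.9, 48 and 41.2 counts per kb. A normalised value is relative to all H3K27me3 counts in islands of that library, so the raw density could be higher and the normalised count lower. Both calls were lost without neurosphere Ctrl 1, where the adjusted p in edgeR was 0.0953 for Bmp2 and 0.0595 for Bmp4. That of Bmp2 was also lost without neurosphere Ctrl 2 (0.0875) or cKO 1 (0.0654). With library size alone, which shifted the median of all regions to -0.52 (log2), both remained lower, at -1.51 and -1.54.

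The other 4 members did not pass for H3K27me3. Grem1 had 54.6, 24.2, 34.9 and 39.4 normalised CPM in hippocampus and 46.2, 42.3, 63.4 and 88.6 in neurospheres, a log2 fold change of 0.60 ± 0.34 (SE) with an edgeR adjusted p of 0.184. Without hippocampal Ctrl 1 its log2 fold change was 0.92, with an edgeR adjusted p of 0.0262, in a fit that called 982 of 2490 regions. Bmp6, Msx1 and Msx2 lay between -0.07 and 0.25 on the log2 scale, and their direction changed with the scaling or the libraries used.

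**Figure D3:**
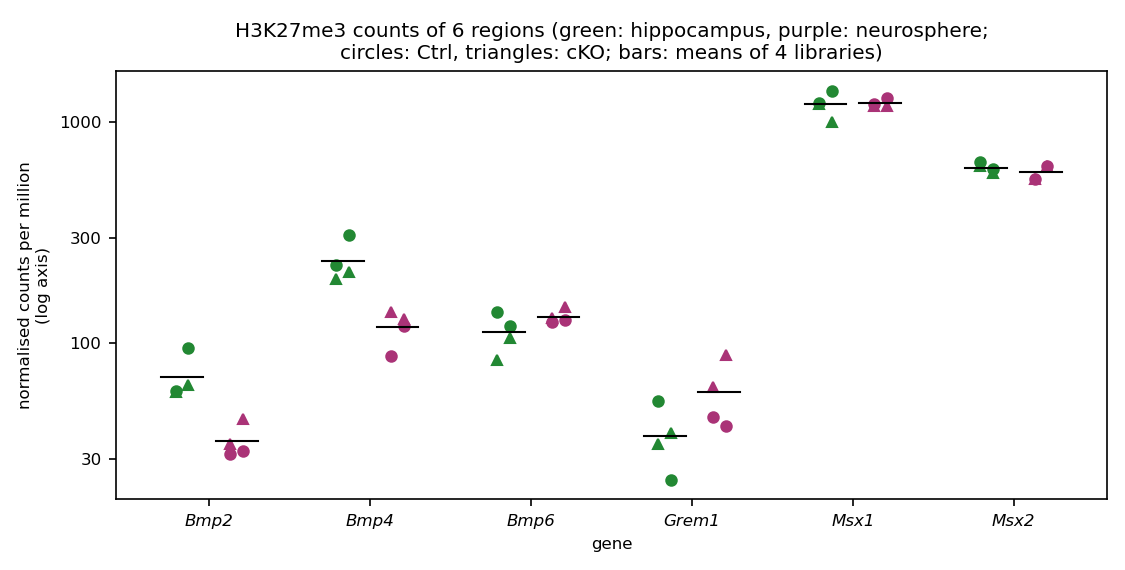
Normalised H3K27me3 CPM (log axis) of the 6 member regions with an island in all 8 libraries, for hippocampus (green) and neurospheres (purple), with circles for Ctrl, triangles for cKO and bars for the mean of 4 libraries. The purple points of Bmp2 and Bmp4 all lie below the green ones, and the points of the other 4 genes overlap.

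For H2AK119ub1 only the Msx genes had a region with an island in all 8 libraries, and neither passed, while 21.7% of 1555 regions did. That is 337 regions, and leaving out 1 library gave from 186 (without hippocampal Ctrl 2) to 538 (without neurosphere Ctrl 2). Msx1 had 962, 686, 603 and 536 normalised CPM in hippocampus and 418, 438, 373 and 376 in neurospheres. The origins did not overlap, with a log2 fold change of -0.77 ± 0.29 (SE) and an edgeR adjusted p of 0.073. DESeq2 gave an adjusted p of 0.0441 for Msx1 and called 472 of the 1555 regions. With library size alone edgeR gave Msx1 an adjusted p of 0.0235 and called 333 regions. Islands covered from 24.4 to 104 kb of that region in hippocampus and from 51.6 to 100.2 kb in neurospheres. Msx2 gave -0.47 ± 0.36 (SE) with an edgeR adjusted p of 0.366. For H3K36me2, where 9.7% of 5204 regions passed, Bmp7 was the only member tested and gave an edgeR adjusted p of 0.697. Its region, chr2:172941001-172972600, lay wholly upstream of the start at position 172940321, so it held neither the start nor the gene body.

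The second comparison asked what the loss of the CxxC domain does to the marks at these genes. The mean H3K27me3 coverage of the 10 genes was 66.9% ± 9.51 (SD, n = 2) in hippocampal Ctrl and 72.4% ± 7.29 in cKO, and 63.5% ± 2.23 and 63.4% ± 3.498 in neurospheres. For H2AK119ub1 it was 51.8% ± 33.3 in Ctrl against 47.3% ± 44.7 in hippocampus and 47.8% ± 38.9 and 38.4% ± 12.7 in neurospheres. For H3K36me2 in neurospheres it was 4.46% ± 3.76 and 9.60% ± 13.6. Each difference was smaller than the larger SD of the groups compared. With 2 libraries against 2 the smallest two-sided p of an exact permutation test is 0.333.

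Few members separated by genotype at the start site. In hippocampus 1 of the 9 members with an H3K27me3 island was higher in both cKO libraries and none lower, against 11.8% higher and 2.58% lower of all promoters with an island. That gene was Bmp5, with 64.5 points between the means. In neurospheres 1 of 10 was lower and 1 higher, against 13.3% and 8.54%. Nog was the lower one, 53.4% ± 9.39 in Ctrl and 6.64% ± 9.39 in cKO (SD, n = 2), and Grem1 the higher one, at 78.9% in both Ctrl and 100% in both cKO libraries. The difference at Grem1 was 0 within 1 kb of the start.

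For H2AK119ub1, none of the 9 members with an island separated in hippocampus, against 1.7% lower and 2.03% higher of all promoters. In neurospheres 1 of 8 was lower, Msx2 with 100% in both Ctrl libraries and 40% and 78.2% in cKO, against 7.79% lower and 4.42% higher. For H3K36me2 in neurospheres none of the 4 members with an island separated, against 5.61% lower and 4.23% higher. These shares of members are near the background or rest on a single gene.

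The members' H3K27me3 islands differed in shape between the genotypes in neurospheres, where the islands of the whole libraries differed too. There the widest H3K27me3 island at the start was wider in both cKO libraries than in both Ctrl libraries for 5 of the 6 members with an island in all 4, against 28.8% of 3401 promoters wider and 18.3% narrower. The Bmp6 island measured 8.0 and 8.6 kb in the Ctrl libraries against 21.4 and 40.4 kb in the cKO libraries, that of Grem1 3.8 and 3.6 kb against 8.0 and 20.6 kb, and that of Bmp4 10.2 and 13.6 kb against 15.8 and 21.2 kb. At Bmp2 the widths were 5.6 and 5.6 kb against 8.0 and 12.2 kb, and at Msx1 92 and 58 kb against 107.2 and 101 kb. The values for Msx2 overlapped. In Ctrl 1 separate islands lay from 6.3 to 9.7 and from 11.1 to 20.7 kb past the Bmp6 start. The single island of cKO 1 over that start reached 17.7 kb past it. The median width over all 3401 promoters was 11.7 kb in Ctrl and 14.4 kb in cKO. Over the genome the Ctrl libraries had 55650 and 65864 H3K27me3 islands over 283 and 268 Mb. The cKO libraries had 54034 and 35595 islands over 305 and 321 Mb, so fewer islands covered more length. The part of this in the members' widths was not tested. All islands within 20 kb of the Bmp6 start totalled 26.1 and 23.5 kb in Ctrl against 28.4 and 36.3 kb in cKO. These totals were 8.8 and 8.6 against 10.8 and 23.955 kb at Grem1, and 13.8 and 16.6 against 23.4 and 25 kb at Bmp4. At Bmp2 they were 5.6 and 5.6 against 10.8 and 18.2 kb, and at Msx1 40 and 40 against 40 and 39 kb. How far the joining of separate islands accounts for the widths was not tested.

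Over the same islands the counts were sparser. Counts per kb were lower in both neurosphere cKO libraries for 6 of 6 members, against 70.6% of promoters. Bmp6 had 135 and 95.1 counts per kb in the Ctrl libraries against 48.5 and 39.8 in the cKO libraries, and Msx2 had 110 and 89.3 against 78.3 and 75.9. The mean over all islands of each library moved the same way, from 60.2 and 52.3 counts per kb in Ctrl to 43.2 and 42.0 in cKO, and its part in the members' change was not tested. Divided by that library mean, density stayed lower in both cKO libraries for 3 of 6, Bmp2, Bmp6 and Grem1, against 25.1% of promoters. For Bmp6 the quotient was 2.24 and 1.82 in Ctrl libraries against 1.12 and 0.95 in cKO libraries. The single island over its start held 1078 and 818 counts in Ctrl libraries against 1037 and 1609 in cKO libraries. The merged Bmp6 region, with its separate islands, held 1862 and 1452 counts against 1424 and 1609. Its log2 fold change in edgeR was -0.12 ± 0.19 (SE).

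**Figure D4:**
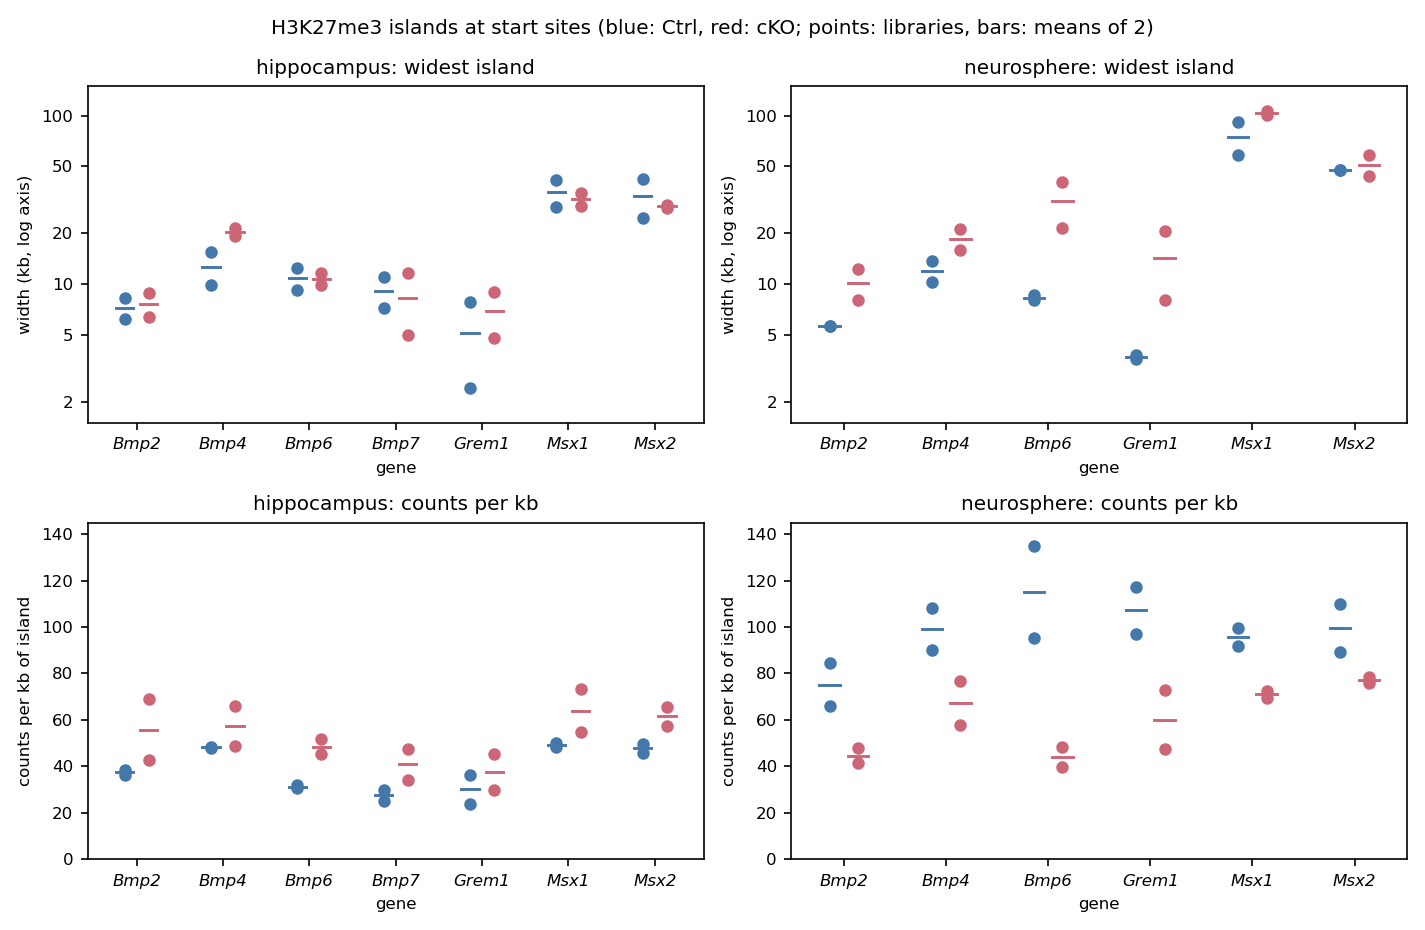
Width of the widest H3K27me3 island that overlaps TSS ±2 kb (upper panels, kb on a log axis) and counts per kb of island (lower panels) for members with an island in all 4 libraries of an origin, with 1 point per library, Ctrl in blue, cKO in red and bars for the mean of 2. In neurospheres the red points lie higher for width at 5 of 6 genes and lower for counts per kb at all 6, and in hippocampus the counts per kb lie higher in cKO for 6 of 7 genes.

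In hippocampus the shares of members were nearer to the background, and whether the origins differ in width or density was not tested. The widest H3K27me3 island was wider in both cKO libraries for 1 of 7 members, Bmp4 with 15.4 and 9.8 kb against 19.2 and 21.6 kb, against 26.7% of 1832 promoters wider and 4.64% narrower. Counts per kb were higher in both cKO libraries for 6 of 7 members, against 78.2% of promoters. Divided by the library mean, this held for 1 of 7, Bmp6 with quotients of 0.92 and 1.00 against 1.04 and 1.495, against 24% of promoters.

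No member passed the region test for genotype. In edgeR the adjusted p was under 0.05 in 0% of 4387 hippocampal and 0% of 11262 neurosphere H3K27me3 regions and in 0% of 2750 and 0% of 6060 H2AK119ub1 regions. At an unadjusted p under 0.05 edgeR counted 159, 2077, 30 and 101 of these regions, and DESeq2 called 3, 734, 0 and 32 after adjustment. Of the members, 7 were tested for H3K27me3 in each origin, 6 for H2AK119ub1 in hippocampus and 3 in neurospheres, and none for H3K36me2. The median log2 fold change of the members was -0.21 and -0.12 for H3K27me3 in hippocampus and neurospheres and -0.16 and -0.30 for H2AK119ub1, where that of all regions was between 0 and 0.02.

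Nog had the lowest p of the members. Its neurosphere H3K27me3 region, chr11:89290401-89302200, stops short of the start at position 89302332. The region runs over nearly all of the gene body and beyond the 3′ end. Separate islands upstream of the start, seen in all 4 neurosphere libraries, were not part of it. Its counts were 658 and 447 in Ctrl libraries against 207 and 188 in cKO libraries, or 39.4 and 36.3 against 14.99 and 12.6 normalised CPM. Of this region 9.8 kb lay in islands in each Ctrl library, against 6.4 and 5.6 kb in the cKO libraries. The density was 67.1 and 45.6 against 32.3 and 33.6 counts per kb, so both length and density in the region were lower in cKO. Its islands lay between 4.1 and 11.9 kb past the start in cKO 1 and between 5.9 and 11.5 kb in cKO 2, beyond the 1.695 kb gene. In both Ctrl libraries they began 0.131 kb past the start. All H3K27me3 islands within 20 kb of the Nog start totalled 23.7 and 25.7 kb in Ctrl against 20.6 and 21 kb in cKO. The log2 fold change of the region was -1.46 ± 0.31 (SE). The unadjusted p of edgeR was 0.00495 and the adjusted p 0.177, which does not pass. DESeq2 gave an adjusted p of 0.00678, in a fit that called 734 of 11262 regions. Without cKO replicate 1 the log2 fold change in edgeR was -1.80. That fit set 2 Ctrl libraries against 1 cKO library and assumes that the lone library varies like the Ctrl pair. Over all 10 alternatives the log2 fold change stayed between -1.80 and -1.25 and the adjusted p between 0.00678 and 0.528. H2AK119ub1 at Nog in neurospheres had a log2 fold change of the same sign, -0.70 ± 0.60 (SE), with an edgeR adjusted p of 1.00.

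Whether the effect of genotype differs between tissue and culture was tested as an interaction. None of the members passed, 2 being tested for H2AK119ub1, 6 for H3K27me3 and 1 for H3K36me2, and 0% of 1555, 0% of 2373 and 0% of 5204 regions passed in edgeR. At an unadjusted p under 0.05 edgeR counted 21, 261 and 197 regions, and DESeq2 called 0, 47 and 10 after adjustment. Without neurosphere cKO replicate 1, edgeR called 122 of the H3K36me2 regions. The lowest adjusted p of a member in edgeR was 0.547, for Bmp4 with H3K27me3.

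The rest of the pathway was read from a list of 45 further genes. H3K27me3 islands in all 4 hippocampal libraries were found at 4 of 9 other ligands (Bmp8a, Bmp8b, Gdf6 and Gdf7), 2 of 10 receptors and co-receptors (Bmpr1b and Acvrl1), 0 of 6 Smads, 3 of 12 other antagonists (Fst, Sost and Chrdl2), 1 of 5 other targets (Msx3) and 1 of 3 proteases (Tll2). In neurospheres the counts were 5, 2, 1, 1, 1 and 1. In all, 11 of 45 had an H3K27me3 island in all 4 libraries in each origin, against 7 and 6 of the 10 members. Over all promoters the shares were 8.35% in hippocampus and 15.5% in neurospheres. The type II receptor gene Bmpr2 was at 0% for H3K27me3 in all 8 libraries. Of the Smad genes, 4 of 6 had none in hippocampus, Smad9 had one in cKO 2 alone, and the inhibitory Smad gene Smad6 was covered to between 0% and 78.55% in hippocampus and to 100% in all 4 neurosphere libraries. Bmpr1b, a type I receptor gene, was covered to between 30.6% and 80.6% in hippocampus and to 0% in neurospheres.

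Between genotypes, 3 of the 25 genes with an H3K27me3 island in hippocampus were higher in both cKO libraries and none lower, where the background was 11.8% and 2.58%. In neurospheres 2 of 23 were higher and 5 lower, where it was 8.54% and 13.3%. For H2AK119ub1 2 of 32 were higher and none lower in hippocampus, against 2.03% and 1.7%, and 2 of 39 were higher and 4 lower in neurospheres, against 4.42% and 7.79%. These counts are small and were not tested against the background. Bmp3, a ligand gene that antagonises other BMPs, was the only one that separated in both origins for 1 mark. H3K27me3 covered 0% and 0% of its promoter in hippocampal Ctrl and 65.35% and 90.35% in cKO, and 95.35% and 100% in neurosphere Ctrl and 70.35% in both cKO libraries, so its directions were opposite. In the region test none of the 45 passed for genotype in edgeR, with 11 tested in hippocampus and 15 in neurospheres for H3K27me3. Between the origins 3 of 7 tested were higher in neurospheres for H3K27me3 and none lower, Acvrl1, Chrdl2 and Tll2. Of all 2373 regions 22.2% were higher and 20.2% lower. For H2AK119ub1, 1 of 10 tested was lower and 1 higher, where 21.7% of 1555 regions passed. For H3K36me2, 1 of 2 tested was higher, where 9.7% of 5204 regions passed.

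The genes whose covered shares over the 24 libraries lay closest to the mean of the 10 members were Htr1a, a serotonin receptor gene, Foxa3, a forkhead factor gene, and Irf5, an interferon regulatory factor gene. Their mean absolute differences from it were 10.4, 11.5 and 11.7 percentage points. Htr1a was covered to 51.0% and 47.0% by H2AK119ub1 and to 62.2% and 67.2% by H3K27me3 in hippocampus and neurospheres, where the mean of the members was 49.6% and 43.1% and then 69.7% and 63.4%. The likeness describes these libraries only.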

How the data were processed

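ChIP-seq islands of H2AK119ub1, H3K27me3 and H3K36me2 were analysed in 24 libraries. The authors trimmed reads with cutadapt, aligned them to mm10 with Bowtie2 2.4.5, removed duplicates with samtools and called islands per library against input with SICER (window 200 bp, gap 600 bp, FDR 0.01, version not stated). Each deposited file gives island positions and a number per island, taken here as its raw read count. All count tests, densities and CPM rest on that reading. Values follow the called length, total depth is unknown, and counts outside islands are unknown. Coordinates are from 1. Starts were those of GENCODE vM21, and 9 mitochondrial islands were left out.

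Groups came from the labels. Covered shares were computed in Python 3.11.15 (numpy 2.4.6, pysam 0.24.0) and compared by exact permutation, two-sided. Merged regions with an island in every library compared were tested in R 4.3.3 with edgeR 4.0.16 (quasi-likelihood, TMM on counts in islands, which also scales CPM, Benjamini-Hochberg over all regions, threshold 0.05, no replicate block), with DESeq2 1.42.0 beside it, and the code was tested on simulated data. A gene took the region with the largest overlap of TSS ±2 kb, so neighbouring regions did not count. The members and gene lists were chosen with earlier results of these data known. All members were named, other pathway genes where coverage separated the genotypes in both origins for 1 mark (others were named after their values were seen), and the 3 genes closest to the members' mean. Alternatives were other windows, island lengths, scalings and left-out libraries.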

Additional observations from a re-analysis of the deposited data

Results flagged for a closer look

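H3K27me3 counts per kb at 5 members moved in opposite directions in the 2 origins, higher in both cKO libraries than in both Ctrl libraries in hippocampus and lower in both in neurospheres. Among all promoters with an island in all 4 libraries of an origin, 78.2% were higher in hippocampus and 70.6% lower in neurospheres. The share that did both was not counted. At Bmp4 the hippocampal values were close, 48.3 and 48.1 counts per kb in Ctrl against 48.6 and 66.1 in cKO. The change in neurospheres minus the change in hippocampus was -48.8 counts per kb at Bmp2, -41.0 at Bmp4, -87.9 at Bmp6, -39.6 at Msx1 and -36.4 at Msx2. The difference between the origins was not tested on these densities. The mean over all islands of a library moved too, from 34.4 and 30.6 counts per kb in hippocampal Ctrl to 43.3 and 34.5 in cKO, and from 60.2 and 52.3 in neurosphere Ctrl to 43.2 and 42.0 in cKO. Divided by that mean, only Bmp6 of these 5 still moved in opposite directions without overlap, with a difference of -1.30 in the quotient, and this too was not tested.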

How the results depend on the processing

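Groups of 2 libraries, islands called in each library and unknown total depth limit these values, and a share of a promoter moves with depth. The mean H3K27me3 coverage of the 10 genes, cKO minus Ctrl, moved in neurospheres from -0.18 points to -4.30 (TSS ±1 kb), 7.95 (±5 kb), -3.19 (gene body) and 5 (1 bp enough), and in hippocampus from 5.46 to -3.11 over gene bodies. Neurosphere minus hippocampus it moved from -6.23 to 4.26 over gene bodies and to -14.96 at equal covered length. For hippocampal H3K36me2 it moved from 0 to 1.66 (±5 kb) and 1.85 (gene body). The causes were not tested. Other alternatives of these means stayed within the spread between libraries, as did 713 of 762 for single genes.

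Members past the threshold in H3K27me3 between the origins numbered 2, and 0 to 3 when a library was left out (3 without hippocampal Ctrl replicate 1, 0 without neurosphere Ctrl replicate 1). For genotype in neurospheres they numbered 0, 1 with DESeq2 and 0 to 1 when a library was left out, and for H2AK119ub1 between origins 0, 1 with DESeq2 and 1 with library size alone. Of 41 fold changes of members, 16 changed sign under some alternative.

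Over all regions, those called for genotype in neurosphere H3K27me3 numbered 0, but 2853 without cKO replicate 1 and 16 without cKO replicate 2. In hippocampal H3K27me3 they numbered 0, but 9 with the replicate block, 5 with library size alone, 37 and 7 without cKO replicates 1 and 2, and 6 without Ctrl replicate 2. For H2AK119ub1 they numbered 0, but 24 in hippocampus without cKO replicate 2 and 567, 3 and 1 in neurospheres without Ctrl replicate 1, Ctrl replicate 2 and cKO replicate 2, with 32 there in DESeq2. For H3K36me2 in neurospheres they numbered 0, but 2463 (1933 of them lower) without cKO replicate 1 and 83 in DESeq2, and in hippocampus 0, but 17 in DESeq2. Each genotype fit without a library sets 2 libraries against 1 and assumes that the lone library varies like the pair. Between origins, leaving out a library gave 186 to 538 H2AK119ub1 regions against 337, and 745 to 1162 H3K27me3 regions against 1007. H3K36me2 regions called between origins numbered 505, 1051 with DESeq2 and 860 with library size alone, and 15 to 1662 when a library was left out. Library size alone also changed the split of lower and higher calls between origins from 480 and 527 to 863 and 231 for H3K27me3, from 162 and 175 to 240 and 93 for H2AK119ub1, and from 223 and 282 to 753 and 107 for H3K36me2. Replicate numbers are not said to mark a shared animal, and deviations of same-numbered libraries correlated between -0.32 and 0.33. With the replicate block 2 members were called for H3K27me3 between the origins and 0 in every other comparison, as without it. The interaction was also fitted with library size alone, the replicate block and each library left out, chosen after seeing the data, with 0 members called in each, and 122 H3K36me2 regions against 0 without neurosphere cKO replicate 1.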
